A study of Mus musculus with 6 samples.

Results

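The aquaporins are a family of membrane channels, and 9 of their genes were examined here in AtT-20, a line grown from a corticotrope tumour of the mouse pituitary. The members were all array probes that the platform annotation assigns to Aqp1, Aqp2, Aqp3, Aqp4, Aqp5, Aqp7, Aqp8, Aqp9 and Aqp11. They came to 19 probes for 9 genes, of 45281 probes and 19057 annotated genes on the array. The family was chosen by the rise of the Aqp1 signal with doxycycline in these same arrays. The changes of Aqp1 between the media are therefore given as a description, with no test.

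The cells were stably transfected with rat PAM-1, a peptide-amidating enzyme of secretory granules, under a doxycycline-inducible promoter, and all groups carried this transgene. Cells of clones 14, 6_1 and 6_2 spent 48 h with or without doxycycline in the medium, with 1 array per clone and medium. The groups were thus 3 control arrays and 3 doxycycline arrays. The concentration of doxycycline is 4 µg/ml in the treatment protocol and 4 mg/ml in the sample descriptions. The submitters call the 3 clones separate without saying what the shared part of the names 6_1 and 6_2 stands for, and p-values measure only the spread between these cultures. No cells without the transgene were analysed with doxycycline here, so effects of the drug and of PAM-1 cannot be told apart. Of 6 corticotrope markers 5 were above background, among them the hormone precursor Pomc and the lineage factor Tbx19, while Pitx1 was not. As RNA came from whole cultures, more expressing cells and more RNA per cell cannot be told apart.

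Aquaporins form tetramers in which each subunit has its own pore. Some pass mainly water, and the aquaglyceroporins Aqp3, Aqp7 and Aqp9 also pass glycerol. Aqp1 is the constitutive water channel of red cells, endothelium, the kidney proximal tubule and the choroid plexus. Aqp2 is inserted into the membrane of kidney collecting duct cells under vasopressin, Aqp4 serves astrocytes, Aqp5 serves salivary, tear and airway glands, and Aqp11 is an unusual member found in the endoplasmic reticulum.

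The stretches just upstream of the start sites are shown for Aqp1 and Aqp5, the only genes of the 9 with probes above background on every array. Each is 250 bases of RefSeq sequence on the GRCm38.p6 build, read 5′ to 3′ on the plus strand, at chr6:55336049-55336298 for Aqp1 and chr15:99590778-99591027 for Aqp5. Capitals mark GC boxes, searched as GGGCGG on both strands.
Aqp1: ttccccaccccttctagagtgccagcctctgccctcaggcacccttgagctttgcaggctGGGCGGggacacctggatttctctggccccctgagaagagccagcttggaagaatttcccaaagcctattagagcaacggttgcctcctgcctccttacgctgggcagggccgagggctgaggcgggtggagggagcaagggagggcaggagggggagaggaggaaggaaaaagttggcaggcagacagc
Aqp5: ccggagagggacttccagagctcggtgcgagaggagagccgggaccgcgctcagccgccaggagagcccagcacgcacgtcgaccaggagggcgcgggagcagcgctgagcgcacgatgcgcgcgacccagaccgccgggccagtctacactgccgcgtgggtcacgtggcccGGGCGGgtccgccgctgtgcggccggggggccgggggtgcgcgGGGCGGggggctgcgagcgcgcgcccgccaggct
The Aqp1 stretch held 1 GC box and the Aqp5 stretch 2, where 32.7% of 32851 promoter stretches of this length held at least 1. Neither held a TATA box (TATAAA, 12.4% of stretches), a CCAAT box (CCAAT, 33.8%), a GATA motif (GATA, 53.6%), an AP-1 motif (TGANTCA, 6.75%) or the core of the tonicity element (TGGAAA, 18.6%). All motifs were searched on both strands, and a match or its absence is a description of these letters only. The Aqp1 stretch held 3 CACCC motifs (CACCC, 52% of stretches) and 1 E-box (CANNTG, 66.2%). The clearest contrast lay in CpG content. Aqp5 had 38 CpG dinucleotides and 78.4% GC, more CpG than 98.1% of all stretches, whereas Aqp1 had 5 CpG and 62% GC against a median of 6 and 52.4%. Of the 9 genes 8 were matched to RefSeq stretches, with 2 stretches each for Aqp7 and Aqp9, and Aqp4 was not matched. Aqp11 was the next richest with 23 CpG, and the others held 0 to 14.

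A probe was called above background on an array when its detection p, the chance of such a signal among the negative control probes, was under 0.01. Over all probes 16196 to 17149 per array met this, with fewer on each doxycycline array than on the control array of its clone. A probe was tested when it did so on at least 3 of the 6 arrays, which 16902 of 45281 probes did. Clone 6_1 in control medium lay far from the other arrays, at 56.5 on a first principal component that held 56.2% of the variance, against 18.7 for the next array. The changes of Aqp1 and some list medians are given without clone 6_1 too, and some genes are given by clone. Levels below are normalised log2 intensities unless scanner signals are named, and levels of different probes cannot be compared.

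Detection differed within the family. Of the 19 probes 4 were above background on all 6 arrays, the 3 probes of Aqp1 and the probe of Aqp5. Among all probes 37.3% reached the test, and among those with 1 gene symbol 41.7%. A further probe, of Aqp11, was above background on 1 array, and the remaining 14 probes on none, where 59% of all probes on the array were above background on none. The 15 aquaporin probes that were not tested gave scanner signals of 89.3 to 204.2. The lowest signal above background was 150.5 to 181.4 per array.

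**Figure D1:**
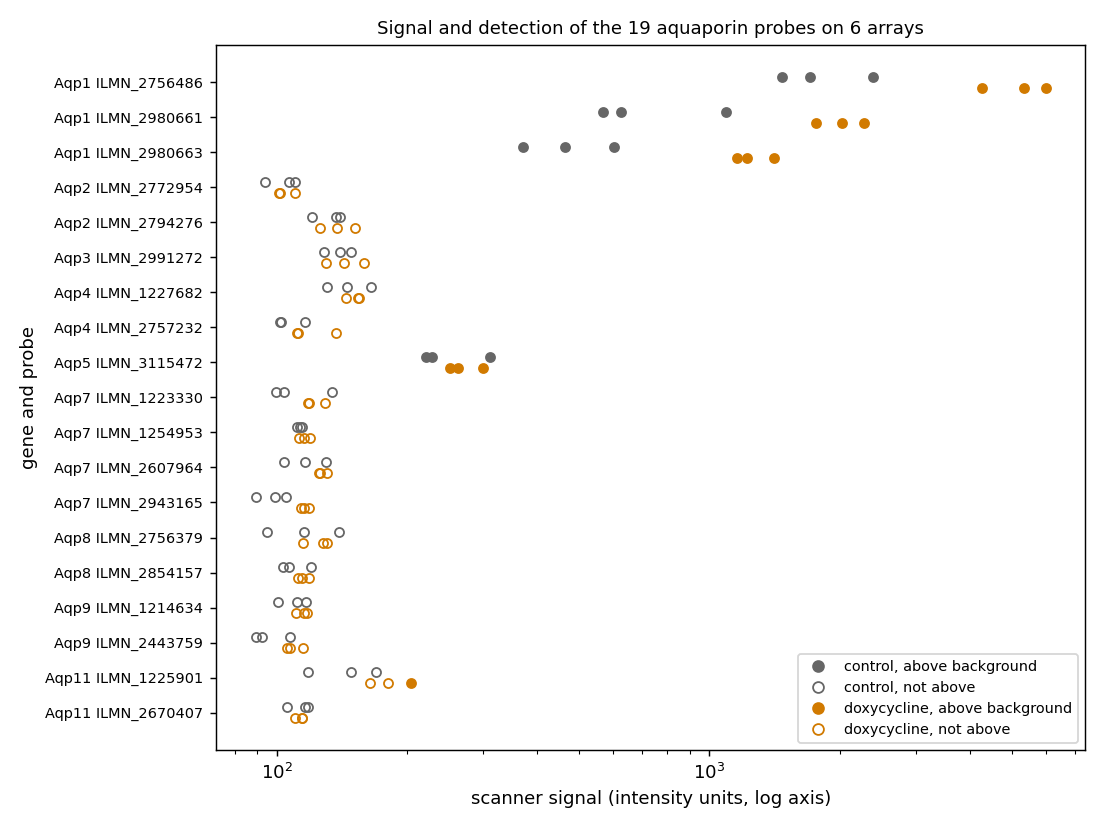
Scanner signal (log axis, intensity units) of each of the 19 aquaporin probes on 6 arrays, control arrays in grey and doxycycline arrays in orange, with filled points above background at a detection p under 0.01. The 3 Aqp1 probes and the Aqp5 probe are filled throughout, and Aqp11 has 1 filled point, on the doxycycline array of clone 14.

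Aqp1 was the one aquaporin with a high signal. Its brightest probe (ILMN_2756486) gave scanner signals of 2389, 1474 and 1706 on the control arrays of clones 14, 6_1 and 6_2, and of 6003, 4270 and 5333 on their doxycycline arrays. All 3 doxycycline arrays lay above all 3 control arrays, and clone 6_1 was the lowest in both media. The second probe (ILMN_2980661) gave 1091, 567 and 625 on the control arrays against 2280, 1763 and 2024. The third (ILMN_2980663) gave 602, 371 and 464 against 1414, 1161 and 1223. In each of these probes too the groups did not overlap. For comparison, 12.1% of the 16902 tested probes had all doxycycline arrays above all control arrays.

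After normalisation the brightest Aqp1 probe read 10.75 ± 0.23 on control arrays and 12.28 ± 0.16 on doxycycline arrays (mean ± SD, n = 3 arrays each). The second probe read 9.25 ± 0.40 and 10.90 ± 0.10, and the third 8.47 ± 0.38 and 10.19 ± 0.06. The control arrays thus spread more widely than the doxycycline arrays in these 3 probes, a difference that was not tested. On each probe the lowest control array was that of clone 6_1.

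The change of Aqp1 was seen in each clone. On the brightest probe the log2 difference between the media was 1.47, 1.61 and 1.52 for clones 14, 6_1 and 6_2. The second probe gave 1.32, 1.92 and 1.70, and the third 1.58, 2.12 and 1.46. The 9 differences thus ran from 1.32 to 2.12, all upward, and the mean folds of the 3 probes were 2.90, 3.13 and 3.30. With no background correction the mean log2 changes were 1.48, 1.49 and 1.47, without a rise of the change from the brightest to the dimmest probe. The probes measure the same gene and are not replicates of the condition.

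By the normalised values the probes agreed least in clone 6_1. There they spanned 0.51 on the log2 scale, against 0.27 in clone 14 and 0.24 in clone 6_2. In clone 6_1 the order of the changes ran opposite to the brightness of the probes. Without clone 6_1 the mean changes of the 3 probes were 1.5, 1.51 and 1.52. Ratios of the plain scanner signals ran from 2.09 to 3.24, and ratios of the authors' processed values, made from the same arrays by a method not given in the sources used here, from 2.31 to 3.39. By the scanner ratios the probes were closest in clone 6_1, at 2.90, 3.11 and 3.13. Clone 14 gave 2.51, 2.09 and 2.35, and clone 6_2 gave 3.13, 3.24 and 2.64. The authors' values spread most in clone 6_2, at 2.76, 2.88 and 2.40.

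**Figure D2:**
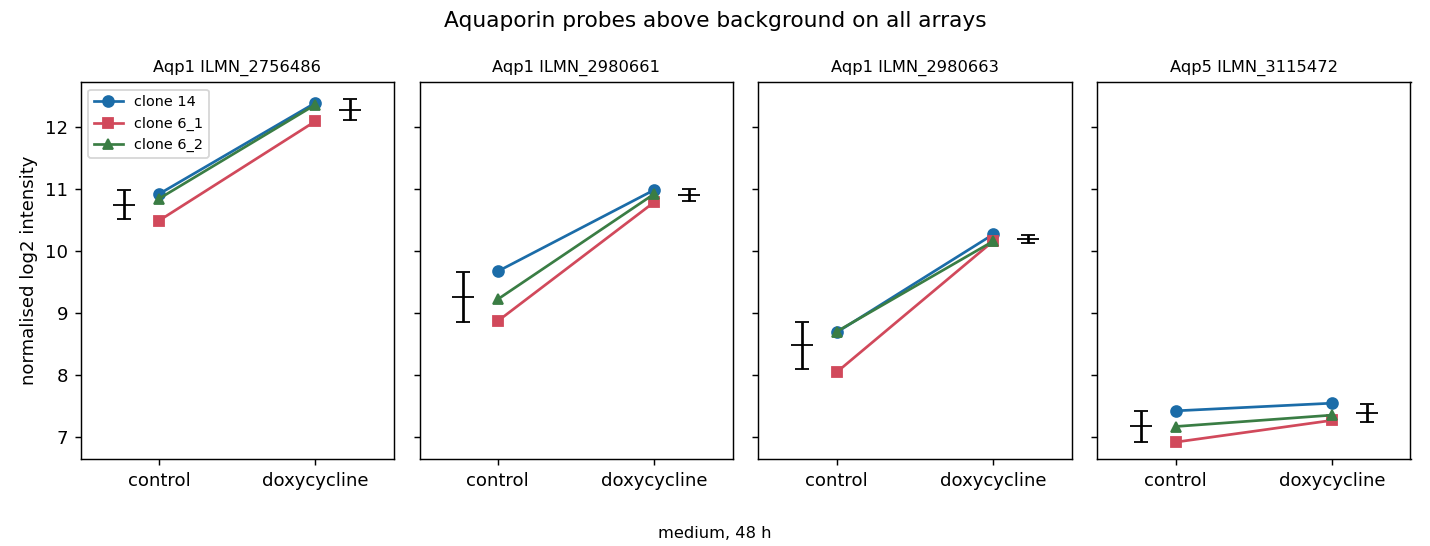
Normalised log2 intensity of the 3 Aqp1 probes and the Aqp5 probe by medium at 48 h, with a line per clone and the mean ± SD of 3 arrays in black beside each group. Each Aqp1 line rises by 1.32 to 2.12 and each Aqp5 line by 0.12 to 0.35, and heights are not comparable between panels.

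Among all tested probes the Aqp1 changes stood near the upper end. By mean change the 3 probes held ranks 10, 11 and 14 of 16902, where several probes of a gene each take a rank. Within clones the ranks were 9 to 25 in clone 14, 22 to 138 in clone 6_1 and 10 to 22 in clone 6_2.

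**Figure D3:**
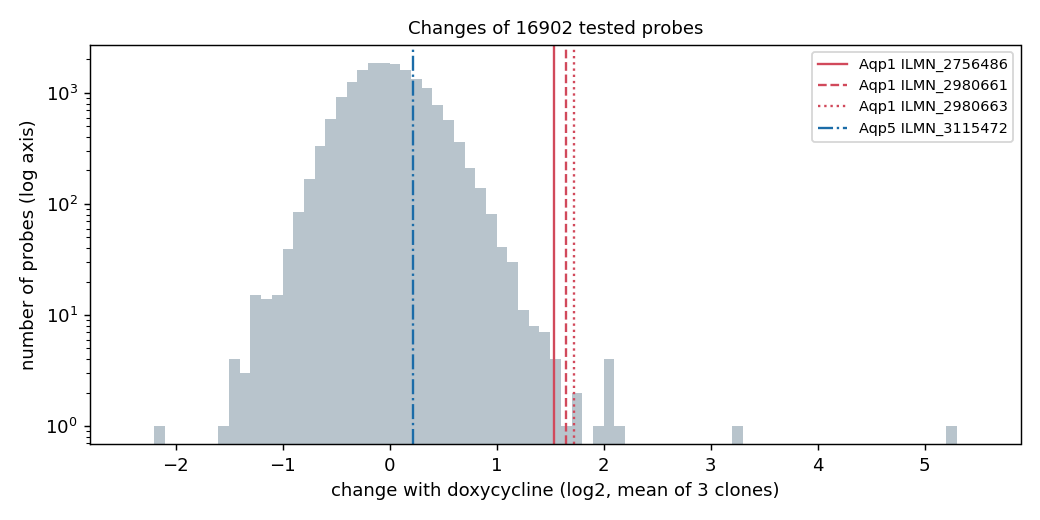
Number of tested probes (log axis) by their mean change with doxycycline over 3 clones (log2), with the Aqp1 probes as red lines and the Aqp5 probe as a blue line. The Aqp1 probes lie at 1.53, 1.65 and 1.72 in the upper tail and Aqp5 at 0.22 within the bulk of the probes.

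Aqp5 was present at a low level and did not pass the test. Its probe (ILMN_3115472) read 7.42, 6.91 and 7.16 on the control arrays of clones 14, 6_1 and 6_2, and 7.54, 7.26 and 7.35 on their doxycycline arrays. The groups overlapped, since the control array of clone 14 lay above the doxycycline arrays of the other clones. The mean difference was 0.22 (SE 0.17; 95% interval -0.16 to 0.60; limma, adjusted p = 0.445). The normalised differences in the clones were 0.12, 0.35 and 0.18. The scanner signals themselves were 311 in control medium and 299 with doxycycline in clone 14, opposite in sign to the normalised values of that clone. A probe that was higher with doxycycline in every clone was common, at 23.9% of those tested.

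Aqp11 lay at the edge of detection on its brighter probe (ILMN_1225901). Scanner signals were 169, 148 and 118 on the control arrays of clones 14, 6_1 and 6_2, and 204, 180 and 164 on their doxycycline arrays. The array with doxycycline was the higher one within each clone, although the groups overlapped. Only the doxycycline array of clone 14 was above background, at a detection p of 0.00321, while the other doxycycline arrays had 0.0107 and 0.0160 and the control arrays 0.0214, 0.0513 and 0.196. Normalised values averaged 5.44 ± 0.37 on control and 6.23 ± 0.33 on doxycycline arrays (SD, n = 3 arrays each). As 5 of these 6 arrays were not above background, the probe was not tested and no fold is given. The difference between these normalised means was 0.79, and it was 0.31 with no background correction. The other Aqp11 probe (ILMN_2670407) was above background on 0 of 6 arrays, with signals of 105.4 to 117.9.

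The vasopressin-regulated channel Aqp2 was not above background on any array on its 2 probes, with scanner signals of 93.9 to 151.5 and a lowest detection p of 0.0705. The astrocyte channel Aqp4 gave 101.5 to 164.9 on its 2 probes, and its lowest detection p was 0.0256, on the control array of clone 14. Aqp8, a water channel of several digestive and reproductive tissues, gave 95.1 to 139.2 on 2 probes. The aquaglyceroporins were at background too. Aqp3 had 1 probe with signals of 128.9 to 159.3, and its lowest detection p was 0.0214, on the doxycycline array of clone 6_2. Aqp7 had 4 probes with 89.3 to 134.2, and Aqp9 had 2 probes with 89.3 to 117.3. The platform further carried Mip, the lens channel, Aqp6 and Aqp12 on 4 probes in all, none of them above background, with signals of 97.4 to 123.3. Low expression and a poor probe cannot be told apart from these signals.

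The difference between clones was independent of the choice of the family and was tested. Averaged over both media, the brightest Aqp1 probe read 11.66, 11.29 and 11.60 for clones 14, 6_1 and 6_2. Clone 14 stood 0.36 above clone 6_1 (SE 0.20; 95% interval -0.09 to 0.82; limma, adjusted p = 0.406), and clone 6_1 stood 0.31 below clone 6_2 (SE 0.20; 95% interval -0.77 to 0.15; adjusted p = 0.998). The second Aqp1 probe differed by 0.50 between clones 14 and 6_1 (SE 0.22; adjusted p = 0.328), with 0.80 in control medium and 0.20 with doxycycline. The third gave 0.38 for the same pair (SE 0.23; adjusted p = 0.451), with 0.64 in control medium and 0.11 with doxycycline. None of the 12 differences over the 4 tested aquaporin probes and 3 pairs of clones passed, and none had an unadjusted p under 0.05. Over all probes 0.136%, 0.142% and 0% passed for clones 14 against 6_1, 14 against 6_2 and 6_1 against 6_2. Aqp5 followed the same order of clones, at 7.48, 7.09 and 7.26 for clones 14, 6_1 and 6_2, and its largest difference, of 0.39 (SE 0.20; adjusted p = 0.382), was again between clones 14 and 6_1. Whether the response of Aqp1 differed between clones could not be tested, since each clone had 1 array per medium.

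Likeness to Aqp1 over the 6 arrays was measured by Pearson correlation with its brightest probe. The other Aqp1 probes correlated at 0.989 and 0.991. The 5 named genes that came closest were Tubg1, which encodes gamma-tubulin of the centrosome, at 0.994, Fpgs, the enzyme that adds glutamate to folates, at 0.990, Dpcd at 0.987, Nprl2, a subunit of a complex that restrains mTORC1, at 0.985, and Ifngr2, a chain of the interferon gamma receptor, at 0.984. Their changes were far smaller than that of Aqp1. Tubg1 read 11.36, 11.22 and 11.32 on the control arrays against 11.80, 11.70 and 11.71, a difference of 0.43. The 5 genes ranged from 0.27 to 0.43. As Aqp1 rose with doxycycline in these same arrays, genes picked by correlation with it tend to rise by that choice. Their changes are a description and no test of them is given. Of the other 16899 tested probes 133, or 0.787%, exceeded 0.95. It also depended on the probe, as other tested probes of Fpgs correlated at 0.02 to 0.77, those of Ifngr2 at 0.30 and 0.32, and those of Dpcd at 0.70 and 0.90.

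The genes next to Aqp1 and Aqp5 in the RefSeq gene order were read off by position, a comparison added after the family's values were seen. On chromosome 6 Aqp1 lies between Inmt and Mindy4 on one side and Ghrhr and Adcyap1r1 on the other. Ghrhr encodes the pituitary receptor for growth hormone-releasing hormone, and Adcyap1r1 that for PACAP. All 8 probes of these 4 neighbours were above background on 0 of 6 arrays, with scanner signals of 92.5 to 171.8. The highest of them was a Ghrhr probe (ILMN_2596001), whose normalised differences were 1.05, 0.46 and 0.21 in clones 14, 6_1 and 6_2, all below detection. Aqp5 lies on chromosome 15 between Aqp2 and Aqp6, and these were at background as given above, while the flanking gene Faim2 had 1 tested probe at -0.20 (SE 0.17; limma, adjusted p = 0.514).

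Genes that work with aquaporins in water, ion and osmolyte transport were taken as 4 lists, chosen with earlier results of these arrays known. Each gene stands by its brightest tested probe. Over all tested probes the median change was -0.01, with 0.189% called higher and 0.124% called lower (limma, adjusted p under 0.05), and 22.3% had an unadjusted p under 0.05. With median scaling the split of calls changed from 32 higher and 21 lower to 75 and 90.

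Genes of cell volume control and the osmotic stress response had 17 tested of 20 on the array, with 0 called higher and 1 called lower, 7 higher and 10 lower in mean, and a median change of -0.32, and 6 had an unadjusted p under 0.05. Without clone 6_1 that median was -0.14. The list also holds Osmr, the oncostatin M receptor, which is no osmotic gene and was not above background. The gene that fell was Stk39, the kinase that phosphorylates sodium-potassium-chloride cotransporters, with log2 changes of -1.34, -1.12 and -1.08 in clones 14, 6_1 and 6_2 (mean -1.18, SE 0.17; limma, adjusted p = 0.0348). Its call was lost with no replicate block and with no filter on dim probes. Slc38a2, an amino acid transporter induced by hypertonic stress, read -0.80 (SE 0.20; adjusted p = 0.103) on its brightest probe and -0.01 on the probe that moved least. Its brightest probe changed by -0.64, -1.31 and -0.45 in clones 14, 6_1 and 6_2. Sgk1, a kinase induced by osmotic and hormonal signals, read -0.61 (SE 0.16; adjusted p = 0.111).

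Ion transporters coupled to water movement had 8 tested of 15 on the array, with 0 called, 2 higher and 6 lower, and a median of -0.10, and 3 had an unadjusted p under 0.05. The calcium-activated chloride channel Ano1 read -0.72 (SE 0.20; limma, adjusted p = 0.112) on a probe above background on 5 of 6 arrays. The cotransporter Slc12a2, a substrate of Stk39 signalling, read -0.67 (SE 0.19; adjusted p = 0.119), with its other tested probe at -0.77. Clone 6_1 gave -1.10 on the brightest Slc12a2 probe, against -0.47 in clone 14 and -0.44 in clone 6_2. Fxyd5, a modulator of the sodium pump, read 0.72 (SE 0.23; adjusted p = 0.140), and clone 6_1 was far higher at 1.40 than clone 14 at 0.27 or clone 6_2 at 0.48. Carbonic anhydrases Car2, Car4 and Car12, enzymes of bicarbonate transport, were above background on no array.

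Genes of glycerol and urea handling had 5 tested of 9 on the array, with 0 called, 3 higher and 2 lower, a median of 0.03 and 3 genes at an unadjusted p under 0.05. That median was -0.10 without clone 6_2. The urea transporter Slc14a2 read 0.59 (SE 0.17; limma, adjusted p = 0.117) on a probe above background on 2 of 3 control arrays. The glycerol kinase family gene Gk5 read -0.51 (SE 0.17; adjusted p = 0.152) on a probe above background on 3 control arrays but 1 doxycycline array, so that it was tested through the group where it was high, and the mitochondrial glycerol phosphate dehydrogenase Gpd2 read -0.46 (SE 0.17; adjusted p = 0.168). Genes of aquaporin trafficking and binding had 16 tested of 18 on the array, with 0 called, 5 higher and 11 lower, a median of -0.09 and 1 gene at an unadjusted p under 0.05. That median was -0.05 when clone 6_1 or clone 6_2 was left out. The kinase anchor Akap11 read -0.58 (SE 0.16; adjusted p = 0.119), the chaperone Hspa8 -0.36 (SE 0.18; adjusted p = 0.274) and the adenylyl cyclase Adcy6 0.33 (SE 0.18; adjusted p = 0.296). Hspa8 changed by -0.33, -0.69 and -0.07 in clones 14, 6_1 and 6_2.

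**Figure D4:**
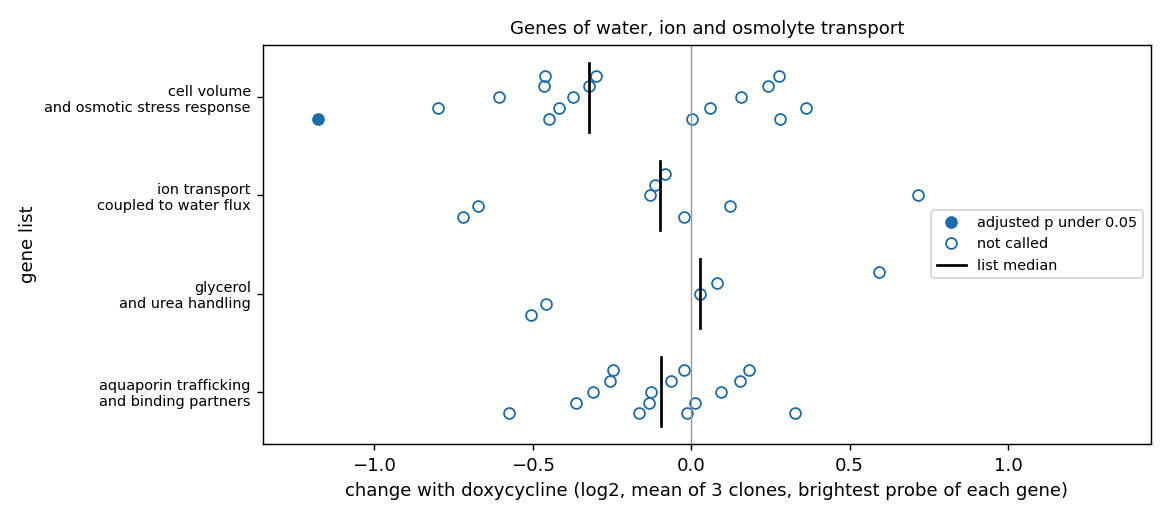
Change with doxycycline (log2, mean of 3 clones) of each tested gene in the 4 transport lists, with filled points for an adjusted p under 0.05 and black bars for list medians. Stk39 at -1.18 is the only filled point, and the medians run from -0.32 to 0.03.

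Cells that carry Aqp1 in the body were looked for by their markers. The erythroid markers on the array, Hba-a1, Epor and Klf1, were above background on 0 of 6 arrays, with summed scanner signals of 363.3 to 436.9 in control medium and 397.3 to 438.4 with doxycycline. Of 5 endothelial markers Kdr alone was above background, on 1 of 2 probes, and read 0.19 (SE 0.18; limma, adjusted p = 0.530), while Pecam1, Cdh5, Tie1 and Emcn were not. The summed signals of the 5 endothelial markers were 1073 to 1235 in control medium and 1163 to 1294 with doxycycline. Of 6 kidney and choroid plexus markers Ttr was above background on 1 doxycycline array, and Cdh16, Umod, Slc34a1, Lrp2 and Kl on none. Their summed signals were 1083 to 1253 in control medium and 1258 to 1324 with doxycycline, so these sums did not overlap, on probes at background. They are scanner signals before normalisation, and the median signal of the whole array varied too. It was 140.9, 136.5 and 122.3 on the control arrays of clones 14, 6_1 and 6_2, and 138.6, 140.7 and 135.0 with doxycycline. How often sums of other background probes fail to overlap was not computed. The part of these markers in the Aqp1 values was not tested. Of the 4 glial markers Slc1a3 alone was above background, at 0.12 (SE 0.21; adjusted p = 0.757), with sums of 741.1 to 904.5 and 861.0 to 886.3. Fibroblast markers were above background on none of the arrays, with sums of 1055 to 1266 and 1172 to 1259. Of other pituitary hormone genes Cga was above background on 1 control array and Gh, Prl, Tshb, Lhb and Fshb on none, with sums of 736.4 to 903.2 and 821.8 to 848.3. The 6 corticotrope markers summed to 66618 to 72367 in control medium and 75662 to 77476 with doxycycline, which did not overlap either. These too are scanner signals before normalisation, and how often sums of other bright probes fail to overlap was not computed. Of single tested probes, 12.1% had all normalised doxycycline arrays above all control arrays. The sums rest mostly on Pomc, whose brightest probe averaged 15.94 in control medium and 16.02 with doxycycline after normalisation. Tbx19 averaged 12.54 and 12.70. After normalisation Pomc read 0.08 (SE 0.16, limma, adjusted p = 0.796) on its brightest probe and -0.17 on its other probe. Of the 5 tested corticotrope markers 3 were higher and 2 lower in mean, with 0 called. The part of these markers in the Aqp1 values was not tested.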

How the data were processed

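Total RNA of 6 cultures was labelled with biotin and hybridised to Illumina MouseWG-6 v2.0 arrays, per the labels' protocols. The deposited table holds a scanner signal per probe, an intensity on a linear scale that is not background-subtracted, and a detection p-value beside it, per the file headers. The authors' processed intensity values were deposited too, by a method not given in the sources used here. Per the submitters' processing notes, the tools were GenomeStudio and BeadStudio, with no role given.

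Signals were normalised with neqc of limma 3.58.1 in R 4.3.3 (background from the detection p-values, normexp, offset 16, quantile, log2). This gave wider differences than no background correction, with 0.22 against 0.13 for Aqp5. For Aqp1 they were 1.53 against 1.48 on the brightest probe and 1.72 against 1.47 on the dimmest. Probes with a detection p under 0.01 on at least 3 arrays entered a linear model of medium with a term for each clone (lmFit, eBayes), on 2 residual and 6.95 prior degrees of freedom. Tests were two-sided, with Benjamini-Hochberg adjustment over all 16902 probes and a threshold of 0.05. They were checked on simulated data with noise independent between probes and arrays. That noise held no shift of a whole array, such as that of clone 6_1 in control medium, so the check does not cover it. The pairing by clone rests on the labels. Deviations from group means correlated at 0.54, -0.02 and 0.14 within clones 14, 6_1 and 6_2. Between clones they ran from -0.54 to 0.43. The control array of clone 6_1 gave 0.43 with the doxycycline array of clone 6_2. The control array of clone 6_2 gave 0.23 with the doxycycline array of clone 6_1. Clones 6_1 and 6_2 thus matched better crosswise than by their labels. Deviations from a mean of 3 arrays are bound to each other, and the control array of clone 6_1 lay far from the rest. Whether any labels were exchanged was not tested.

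Gene symbols came from the platform annotation, with 1 symbol for 34885 probes, several for 18 and none for 10378. All 19 member probes matched RefSeq by Entrez number. The members, lists and tests were chosen with earlier results of these data known, and an alias listed beside its current symbol was counted once. Named genes are the members, the 5 most correlated with Aqp1, the called and 3 smallest-p members of each list, and detected markers. Some other genes were named after their values were seen. The number of arrays limits the precision. No probe sequences or proteins were used here.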

Additional observations from a re-analysis of the deposited data

How the results depend on the processing

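Over the 11 alternatives run the changes of Aqp1 were 1.48 to 1.56, 1.48 to 1.81 and 1.47 to 1.85 on the 3 probes. That of Aqp5 was 0.11 to 0.27, never called (limma, adjusted p = 0.433 to 0.748). Many of these alternatives could not turn the direction. The filters and the unpaired fit leave a mean change as it was, and Aqp1 and Aqp5 were higher in each clone that could be left out. The ranges of Aqp1 are thus a description of its size only. None of the 84 values of clone differences under 7 alternatives was called or reversed (limma, lowest adjusted p = 0.152). These values are not separate, since they share arrays, clones and the probes of Aqp1. The filters leave the differences themselves unchanged, so those values could not reverse. The difference between the Aqp11 means, on a probe mostly below background, ran from 0.31 to 0.82. At a detection p of 0.05 or 0.001, 5 or 4 aquaporin probes were above background on at least 3 arrays. The counts of called probes behind the background shares, 32 higher and 21 lower, moved more. They were 77 and 31 with an offset of 50, 75 and 90 with median scaling, 50 and 27 with cyclic loess, and 1 and 0 with no filter, where 45281 probes were tested. With no replicate block, the unpaired form of the fit paired by clone, they were 19 and 14. Leaving out a clone gave 44 to 479 higher and 34 to 238 lower. The lower value of each came without clone 6_1 and the higher without clone 14, and without clone 6_2 there were 234 and 166. The 4 tested aquaporin probes all had the same SE without clone 14 (0.291) and without clone 6_2 (0.299). Without clone 6_1 their SEs were 0.138 to 0.155. The counts of these fits thus rest on unlike error estimates and cannot be compared directly. The osmotic list's 1 called gene became 0 with no filter and with no replicate block, and 1 to 2 on leaving out a clone, with 2 without clone 14 or 6_2. The ion transport list then had 0 to 1 called higher, the 1 without clone 14. The glycerol median turned to -0.06 with median scaling, -0.11 with no filter and -0.10 without clone 6_2. The causes were not tested. Signals near background limit every statement on the 7 genes that were not tested.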
